A study of Mus musculus with 12 samples.

Results

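AP-1 is a transcription factor built from pairs of basic leucine zipper (bZIP) proteins, in which JUN proteins pair with each other or with a FOS or BATF partner to bind a short DNA element. FOS and FOSB are made within minutes of antigen receptor signalling, FOSL1 and FOSL2 more slowly, and BATF lacks the activation domain of FOS and binds many of its sites together with IRF4 or IRF8. In CD8+ T cells, the mix of JUN, FOS and BATF proteins is known to shape the choice between activation, exhaustion and memory. The genes examined here were the 9 that encode FOS, FOSB, FOSL1, FOSL2, JUN, JUNB, JUND, BATF and BATF3, taken by gene symbol, and all 9 were among the 25860 genes of the RNA-seq data. Of the 23932 ATAC-seq peaks, 25 were annotated to these genes.

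RNA-seq was paired with ATAC-seq, in which a transposase tags accessible DNA, and both were carried out on T_prog_ cells, progenitor CD8+ T cells sorted from pancreatic lymph nodes, with 3 libraries per genotype in each assay. All mice were NOD females whose T cells carry the transgenic 8.3 T cell receptor, which recognises a peptide of the islet β cell antigen IGRP. *NOD-TCR 8.3 UTX TCD* mice had floxed alleles of *Kdm6a*, the X-linked gene for the histone demethylase UTX, and an *Lck*-driven Cre that deletes them in T cells, whereas *NOD-TCR 8.3 WT* controls were without Cre. Age was not given for these samples, and the gate was Ly108 without CXCR6 in the labels and Ly108 without CD39 in the study's methods. Counted reads came to 146456724, 144503203 and 193568919 for WT replicates 1 to 3 and to 61512402, 175462433 and 187275082 for UTX TCD replicates 1 to 3, so UTX TCD replicate 1 was the shallowest. Values are normalized counts, which are reads divided by 1 size factor per library. A count of 0 allows a true level of up to 3 reads, or 2.21 to 6.75 normalized counts depending on the library, a limit that covers counting error only. Genes with a mean of at least 10 were tested with limma. A gene was called when its p, adjusted by the Benjamini-Hochberg method over all tested genes, was under 0.05 and its log2 fold change was over 0.5 in size, given as UTX TCD over WT on the log2(normalized count + 1) scale.

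*Kdm6a* was counted at 28365, 28949 and 29172 in WT and at 24158, 24792 and 24579 in UTX TCD libraries. The groups did not overlap, with means of 28828 ± 417 in WT and 24510 ± 322 in UTX TCD cells (SD, n = 3) and a log2 fold change of -0.23 (limma adjusted p = 0.00114), and a count per gene does not show whether the floxed exons were read. Among the 11 markers of CD8 T cells and progenitors, *Cd8a* was counted at 272155 ± 2012 in WT and 298501 ± 23849 in UTX TCD cells (SD, n = 3), and *Tcf7*, which encodes the progenitor factor TCF1, at 235632 ± 8264 and 224012 ± 4855 (SD, n = 3). Limma called 0 of these 11 markers, as did edgeR and DESeq2, where limma called 17.6% of all tested genes. Of the 11, 7 had an unadjusted limma p under 0.05. Without the fold limit 6 passed the adjusted p, as did 40.7% of all tested genes. These 6 went both ways, *Cd8b1*, *Cd3d* and *Cd3g* lower (log2 fold change -0.37, -0.28 and -0.26) and *Lef1*, *Cd44* and *Cd3e* higher (0.38, 0.17 and 0.17). WT replicate 2 stood apart from the other WT libraries. Its chi-square per gene was 73.8 against WT replicate 1 and 112 against WT replicate 3, which differed from each other by 29.6. The inducible heat shock gene *Hspa1a*, singled out after its values were seen, was counted at 895 and 1051 in WT replicates 1 and 3 but at 89.8 in replicate 2, and at 216, 244 and 53.1 in the UTX TCD libraries. In the UTX TCD group replicate 3 was the most distant, at 33.2 from replicate 1 and 48.2 from replicate 2, which differed by 12.7. Without WT replicate 2 the log2 fold changes were -0.41 for *Jund*, -0.16 for *Junb*, 1.48 for *Fosl1* and 0.07 for *Batf*, and those of the called members are given beside their main values. Without UTX TCD replicate 3 the log2 fold changes were -2.49 for *Fosl2*, -0.68 for *Fos*, 0.80 for *Jun*, 0.72 for *Fosb*, -0.35 for *Jund* and 0.02 for *Batf*.

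Across the family, *Fosl2* and *Fos* fell and *Jun* and *Fosb* rose in UTX TCD cells, whereas *Jund* passed the p limit but not the fold limit, and *Junb*, *Batf* and *Fosl1* were not called. Of the 8 members that passed the filter on low counts, 4 were called, beside 2538 of 14459 tested genes (17.6%) across the whole table. The 2 higher and 2 lower members stood against a background of 10.5% of genes called higher and 7.05% called lower. Without the fold limit 5 of the 8 passed, against 40.7% of tested genes, and in 5 of the 8 the values of the genotypes did not overlap, against 51.9%. The median log2 fold change of these 8 was -0.06, against 0.00 over all tested genes. *Fosl1* passed the filter only through the UTX TCD group, where it is higher. Over genes with a mean of at least 10 in both groups, 4 of 7 members and 16.4% of genes were called, and the members' median was -0.21. In bulk RNA, fewer cells that express a gene and less RNA per cell cannot be told apart. With 3 libraries against 3, an exact two-sided permutation test of a single gene cannot go below p = 0.10, and 5 members reached it.

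**Figure D1:**
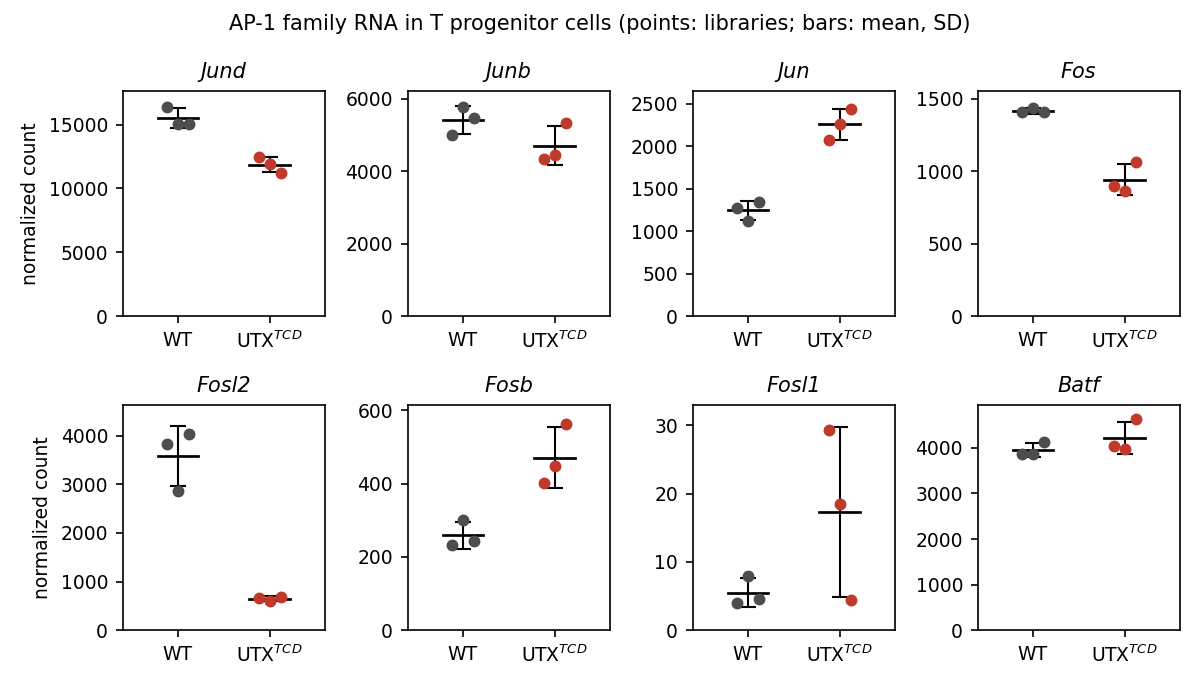
Normalized counts of 8 AP-1 family genes in WT and UTX TCD T_prog_ libraries, each panel on its own linear axis from 0. Points are libraries, and bars are the mean and SD of 3 libraries. *Fosl2*, *Fos* and *Jund* lie lower and *Jun* and *Fosb* higher in all 3 UTX TCD libraries than in any WT library, and the other 3 genes overlap.

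Among the JUN genes, *Jun* encodes c-JUN, a strong activator that is itself an immediate early gene. Its normalized counts were 1273, 1122 and 1339 in WT and 2078, 2260 and 2442 in UTX TCD libraries. No WT library reached the UTX TCD range, and the means differed by 1.82-fold. *Jun* rose by a log2 fold change of 0.86 (SE 0.09, limma adjusted p = 0.000105), and by 0.79 without WT replicate 2, with limma, edgeR or DESeq2 adjusted p from 1.02e-17 to 0.000821 over the alternatives. *Jund*, whose product restrains proliferation in many cell types and is abundant in resting cells, was counted at 16422, 15066 and 15046 in WT and at 12439, 11943 and 11243 in UTX TCD cells. The groups did not overlap and the UTX TCD mean was 76.6% of the WT mean. Its log2 fold change of -0.39 (SE 0.05, limma adjusted p = 0.000561) was within the fold limit, so *Jund* was not called. *Junb*, which in T cells acts with BATF at many shared sites, was counted at 5008, 5760 and 5473 in WT and, in UTX TCD libraries, at 4337, 4438 and 5322. The last of these, replicate 3, lay within the WT range, and the log2 fold change was -0.21 (SE 0.09, limma adjusted p = 0.0809). Without UTX TCD replicate 3 it was -0.30, still within the fold limit, with limma adjusted p = 0.00932 in a range from 0.00932 to 0.23 over the alternatives. In RefSeq GRCm38.p6 (mm10) *Jun* lies at chr4:95049036-95052222 and, on chromosome 8, *Junb* at chr8:84976909-84978748 and *Jund* at chr8:70697739-70700616. In GENCODE the exons of *Jun*, *Junb* and *Jund* share bases with *Junos*, *Prdx2* and *Gm11175*, respectively. The annotation, strand setting and treatment of shared reads in the counting were not given in the sources used here. Reads of these partners may thus be part of the 3 counts, or reads in the shared bases may be missing from them.

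*Fosl2*, which encodes FRA-2, a FOS protein without the strong activation domain of c-FOS, had the largest absolute log2 fold change of the 4 called members. Its normalized counts were 3829, 2869 and 4021 in WT and 655, 601 and 692 in UTX TCD libraries. The lowest WT library, replicate 2, was still far above the highest UTX TCD library, and the UTX TCD mean was 18.2% of the WT mean, a 5.50-fold difference. The log2 fold change was -2.45 (SE 0.12, limma adjusted p = 1.87e-06), and it was -2.60 without WT replicate 2, with limma, edgeR or DESeq2 adjusted p from 7.51e-84 to 1.87e-05 over the alternatives. *Fos*, the founding member and a classical immediate early gene, was counted at 1405, 1437 and 1404 in WT and at 898, 866 and 1060 in UTX TCD cells. The WT libraries were close together and all above the UTX TCD libraries, of which replicate 3 was the highest. *Fos* changed by -0.59 (SE 0.09, limma adjusted p = 0.000914), just past the fold limit, and by -0.58 without WT replicate 2, with adjusted p from 1.01e-07 (DESeq2) to 0.0053 over the alternatives. *Fosb*, an immediate early relative of *Fos*, moved the other way. It was counted at 233, 300 and 244 in WT and at 403, 448 and 563 in UTX TCD libraries, without overlap. Its log2 fold change was 0.86 (SE 0.16, limma adjusted p = 0.00284), or 0.97 without WT replicate 2, with adjusted p from 5.02e-06 (DESeq2) to 0.0146 over the alternatives.

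*Fosl1*, which encodes FRA-1, was close to the limit of counting. Its reads numbered 4, 8 and 6 in the WT libraries and 13, 23 and 6 in those of UTX TCD cells, and it passed the filter on low counts only through the UTX TCD group. UTX TCD replicates 1 and 2 lay above the WT libraries, whereas replicate 3, at a normalized count of 4.42, lay among them. The log2 fold change was 1.23 (SE 0.65, limma adjusted p = 0.164). It was 1.95 without UTX TCD replicate 3, where it would be called (limma adjusted p = 0.0147), and 0.71 without UTX TCD replicate 1 (limma adjusted p = 0.45), which are the ends of the range over the alternatives. In the same assembly *Fosl2* lies at chr5:32136472-32157840, *Fos* at chr12:85473890-85477274, *Fosb* at chr7:19302696-19310118 and *Fosl1* at chr19:5447698-5455938. *Fosl1* shares exon bases with *Ccdc85b* in GENCODE, whose reads may be part of this count, or reads in the shared bases may be missing from it.

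Of the BATF genes, *Batf* encodes the partner through which JUN proteins and IRF4 meet on DNA in activated T cells. Its normalized counts were 3868, 3855 and 4134 in WT and 4047, 3982 and 4621 in UTX TCD libraries. The ranges overlapped, and the log2 fold change was 0.09 with a 95% confidence interval from -0.06 to 0.24 (SE 0.07, limma adjusted p = 0.319). *Batf3*, known for its role in cross-presenting dendritic cells and in CD8+ T cell memory, had 1, 1 and 0 reads in the WT libraries and 0, 0 and 4 in those of UTX TCD cells. That is too low for a test, so a difference in *Batf3* was not detectable at this depth. *Batf* lies at chr12:85686720-85709087 and *Batf3* at chr1:191098414-191108943. *Irf4*, which encodes the IRF partner induced by antigen receptor signalling, was counted at 2046, 3366 and 2097 in WT and 3541, 3440 and 4267 in UTX TCD libraries. WT replicate 2 was again the odd library and came close to the UTX TCD range. *Irf4* was called at a log2 fold change of 0.62 (limma adjusted p = 0.0212), but this call was lost with DESeq2 on the recovered reads (adjusted p = 0.0658) and in limma without WT replicate 1, WT replicate 3 or UTX TCD replicate 3 (adjusted p = 0.0742, 0.0662 and 0.0726, from 0.000497 to 0.0742 over the alternatives). Without WT replicate 2 its log2 fold change was 0.85. *Irf8*, the other IRF partner, overlapped between the groups at a log2 fold change of 0.46 (limma adjusted p = 0.0661).

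To set the members beside each other, reads were divided by exon length and depth (RPKM, scaled per kilobase of exon and by each library's counted reads). With GENCODE exon lengths, *Jund* was the most abundant at 64.1 ± 3.45 RPKM in WT and 51.2 ± 2.55 in UTX TCD cells, followed by *Batf* at 19.4 ± 0.494 and 21.6 ± 1.95 and *Junb* at 16.2 ± 1.28 and 14.7 ± 1.78 (SD, n = 3). Below them in WT came *Fos* at 4.15 RPKM, then *Jun* at 2.69 and *Fosl2* at 2.54, whose ranges over libraries overlapped, and *Fosb* at 0.286. In UTX TCD cells the order of these lower members was *Jun* at 5.10 RPKM, *Fos* at 2.88, and then *Fosb* at 0.543 and *Fosl2* at 0.483, which overlapped. *Fosl1* was at 0.0186 and 0.0614 RPKM. Parts of this order depended on the gene models. With RefSeq exons, which are longer for *Jund* (2878 against 1668 bases) and shorter for *Batf* (904 against 1406 bases), *Jund* stood at 37.2 and *Batf* at 30.1 RPKM in WT, but *Batf* at 33.6 and *Jund* at 29.7 in UTX TCD cells. In the middle of the order, RefSeq exons of *Fosl2* are shorter (5864 against 9680 bases), which put *Fosl2* in WT at 4.19 RPKM, overlapping *Fos* at 4.63 and wholly above *Jun* at 2.69.

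The make-up of the FOS group shifted with both sets of gene models. Per kilobase of GENCODE exon, *Fosl2* made up 36.2% ± 4.64 of the summed FOS RNA in WT and 12.2% ± 0.586 in UTX TCD cells (SD, n = 3), and with RefSeq exons 44.9% and 16.1%. *Fosb* went from 4.11% ± 0.780 to 13.6% ± 1.28 (SD, n = 3), and *Fos* from 59.4% ± 3.77 to 72.5% ± 0.694 (SD, n = 3), although *Fos* itself was lower. Summed FOS RNA was 7.11, 6.73 and 7.14 RPKM in WT and 3.82, 3.64 and 4.45 RPKM in UTX TCD libraries, which is 56.7% of the WT mean (53.3% with RefSeq exons). In the JUN group with GENCODE exons, *Jun* went from 3.24% ± 0.298 to 7.19% ± 0.640 of the summed RNA (SD, n = 3), while *Jund* remained the main contributor at 77.2% and 72.1%. With RefSeq exons *Jund* made up 61.8% in WT and 55.9% in UTX TCD cells, *Junb* 33.75% and 34.5%, and *Jun* 4.48% and 9.59%. The JUN sum with GENCODE exons was 83.0 ± 2.79 RPKM in WT and 71.0 ± 1.25 in UTX TCD cells (SD, n = 3). It was 60.1 and 53.2 RPKM with RefSeq exons.

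The bZIP proteins that pair or compete with AP-1 proteins were read next, as 20 genes of which 19 were tested. Of these, 4 were called higher and 1 lower, or 26.3% against 17.6% of all tested genes, with a median log2 fold change of 0.12. Without *Atf3*, which passed the filter on low counts only through the UTX TCD group, 4 of 18 were called (22.2%, against 16.4%), with a median of 0.06. *Maf*, which encodes a large MAF protein that binds extended AP-1-like elements, was counted at 297, 369 and 288 in WT and at 2094, 2019 and 2346 in UTX TCD libraries. The groups were far apart, by 6.77-fold and a log2 fold change of 2.76 (limma adjusted p = 5.07e-07). *Jdp2*, whose product pairs with JUN and represses AP-1 sites, was counted at 255, 314 and 255 in WT and 477, 545 and 721 in UTX TCD libraries (log2 fold change 1.06, limma adjusted p = 0.00111). *Bach2*, which encodes a repressor that competes with AP-1 for its element and holds CD8+ T cells in a less differentiated state, was higher in all 3 UTX TCD libraries by a log2 fold change of 0.59 (limma adjusted p = 3.03e-05). *Atf3*, a stress-induced JUN partner, rested on 5 to 8 reads per WT library and 13 to 25 per UTX TCD library (log2 fold change 1.74, limma adjusted p = 0.00703). *Nfil3*, which encodes a bZIP repressor, was lower, at 249 ± 34.4 in WT and 150 ± 15.7 in UTX TCD cells (SD, n = 3, log2 fold change -0.72, limma adjusted p = 0.00763). *Batf2* was at 0 reads in all 6 libraries.

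MAP kinases phosphorylate JUN and FOS proteins, and the serum response factor with its ELK partners switches on the *Fos* promoter. Limma, edgeR and DESeq2 each called 0 of the 21 such genes, where limma called 17.6% of all tested genes. Their log2 fold changes ran from -0.30 to 0.45, 9 had an unadjusted limma p under 0.05, and 7 passed the adjusted p without the fold limit, as did 40.7% of all tested genes. For the phosphatases, ubiquitin ligases and other brakes on MAP kinases and AP-1, 1 of 12 tested genes was called (8.33%, against 17.6% of all tested genes). This was *Dusp2*, whose product removes phosphate from MAP kinases in the nucleus. It was counted at 11936, 10766 and 13114 in WT and 5815, 6551 and 5955 in UTX TCD libraries. All UTX TCD values were lower, by a log2 fold change of -0.96 (limma adjusted p = 2.14e-05).

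Immediate early genes other than the AP-1 members, together with genes that respond to cell dissociation, were counted in the same way. Of 21 tested, 1 was called higher and 4 lower, or 23.8%, near the 17.6% of all tested genes, and the median log2 fold change was -0.02. *Nr4a2*, which encodes an orphan nuclear receptor induced by antigen, was counted at 261, 486 and 275 in WT and 927, 837 and 1326 in UTX TCD libraries (log2 fold change 1.63, limma adjusted p = 0.000935). *Ier3* fell by 1.34 on the log2 scale (limma adjusted p = 6.29e-05), from 1876 ± 270 in WT to 739 ± 104 in UTX TCD cells (SD, n = 3). *Klf6* and *Ier2* fell by 0.62 and 0.56 on the log2 scale. The call of *Ier2* was lost when each library was scaled to the same sum, at a log2 fold change of -0.49. *Dnajb1*, which encodes a heat shock co-chaperone, was called at -0.52 (limma adjusted p = 0.0414). That call was lost without WT replicate 1, WT replicate 3 or UTX TCD replicate 3 (log2 fold change -0.47, -0.47 and -0.29), with scaling to the same sum (-0.46), and with edgeR and DESeq2 (-0.49 in both). *Hspa1a* and *Hspa1b* followed the division of WT replicate 2 from the other WT libraries. Neither was called by limma or DESeq2, and edgeR called *Hspa1b* (log2 fold change -1.99) but not *Hspa1a*. The part of cell handling in the AP-1 values was not tested.

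Among 20 genes known as AP-1 targets in T cells, 14 were tested, 1 was called higher and 2 lower (21.4%, near the 17.6% of all tested genes), and the median log2 fold change was 0.02. Of the 3 called, *Ccl3* and *Havcr2* passed the filter on low counts only through the group in which they were higher, and without them 1 of 12 was called (8.33%, against 16.4%). *Icos*, which encodes a costimulatory receptor, was counted at 8687, 9532 and 8130 in WT and 5605, 5392 and 4859 in UTX TCD libraries. The groups were separate, with a log2 fold change of -0.73 (limma adjusted p = 7.72e-05). *Havcr2*, which encodes the inhibitory receptor TIM-3, had 18, 22 and 19 reads in the WT libraries and 1, 4 and 5 in those of UTX TCD cells (log2 fold change -2.23, limma adjusted p = 0.00301). *Ccl3*, a chemokine gene, had 5, 1 and 6 reads in the WT libraries and 9, 24 and 22 in those of UTX TCD cells, so its log2 fold change of 2.27 (limma adjusted p = 0.00811) depends on the pseudocount, being 2.46 with one of 0.5 and 1.502 with one of 5. The cytokine genes *Il2*, *Il4*, *Il10*, *Il21* and *Csf2* and the protease gene *Mmp9* were too low to test.

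Each of the 3 called members with the largest absolute log2 fold change was set beside the tested genes with the most similar pattern, measured as the root mean square difference of centred log2 levels over 6 libraries. For *Fosl2* these were *Cst7*, *Ampd1* and *Tent5a*, at 0.06, 0.13 and 0.14, against a median of 1.24 over all tested genes. *Jun* was closest to *Obsl1*, *Tcf19* and *Hexim2*, at 0.05 to 0.06 (median 0.47). *Fosb* was closest to *Ska3*, *Bub1* and *Tcp11l1*, at 0.04 to 0.06 (median 0.49). With 6 libraries in 2 well separated groups, this closeness mainly repeats the fold change.

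ATAC-seq values were the authors' mean log2 concentrations, the log2 of the normalized reads per peak over the 3 libraries of a genotype. The deposited peaks are those past the authors' FDR limit, so each peak listed was selected for a difference, and the values below carry no spread and no test. Of the 25 peaks of family genes, 13 were higher and 12 lower in UTX TCD cells, or 52.0% higher, against 68.8% of all 23932 peaks. FOS genes had 4 of 10 peaks higher, JUN genes 3 of 9 and BATF genes 6 of 6. *Fos* and *Jun* had 6 peaks each, where the median gene with any peak had 1, and *Fosl1* had none in the list. Coordinates are those of mm10 (GRCm38).

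**Figure D2:**
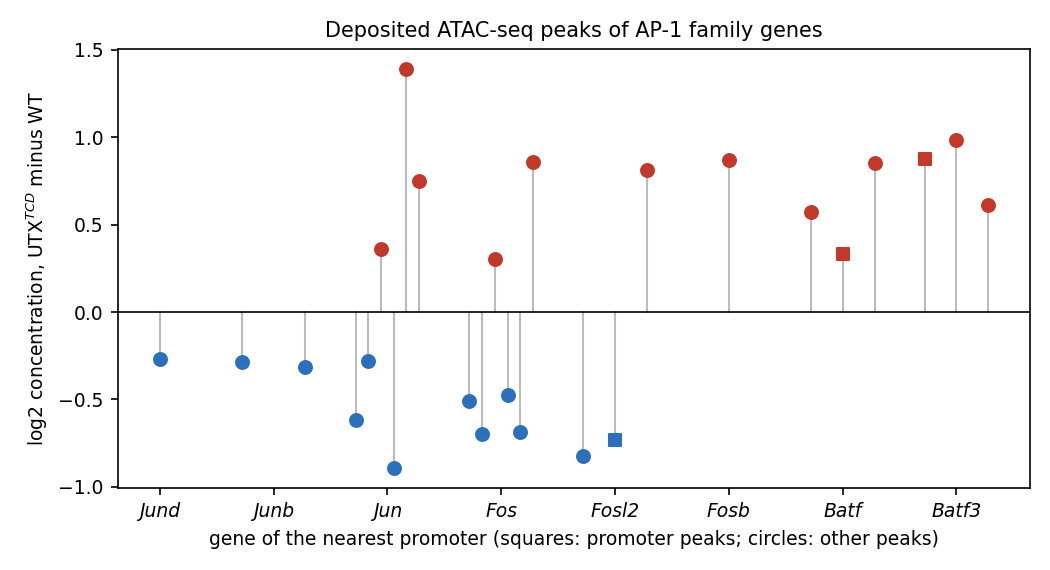
Difference of the authors' mean log2 concentration, UTX TCD minus WT, for the 25 deposited ATAC-seq peaks of AP-1 family genes (y axis), by the gene of the nearest promoter (x axis). Within a gene, peaks run in order of their signed distance to the start site, squares are promoter peaks and circles other peaks, and all *Batf* and *Batf3* peaks lie above 0 while those of *Junb* and *Jund* lie below it.

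*Fosl2* had 3 peaks. Its promoter peak, at chr5:32135580-32135980 and 692 bases before the start site of the authors' annotation, was at 11.57 in WT and 10.84 in UTX TCD cells, a difference of -0.73. Of the 2621 promoter peaks in the whole list, 14.7% were lower. A second peak, 3276 bases before the start site at chr5:32132996-32133396, where GENCODE also has an exon of *Gm10463*, differed by -0.82. The third, in intron 2 of 3 at chr5:32148596-32148996, was the only one higher, at 7.84 in WT and 8.66 in UTX TCD cells. So the *Fosl2* promoter was less accessible in the same genotype in which its RNA was lower, while its intron had a weaker peak that was more accessible.

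*Fos* had no deposited peak at its promoter. Its 6 peaks were all intergenic in the authors' annotation, and 4 of them were lower in UTX TCD cells, at 5.00, 16.6, 37.5 and 46.0 kb before the start site, by differences from -0.70 to -0.47. In the peak at 37.5 kb GENCODE has an exon of *Gm40477*. The strongest peak, 26.7 kb before the start site at chr12:85446962-85447362, was higher by 0.30, and one 58.9 kb after it, at chr12:85532540-85532940, was higher by 0.86. *Fosb* had a single peak, at chr7:19326025-19326425, 16.2 kb before its start site. It was at 7.61 in WT and 8.48 in UTX TCD cells, higher by 0.87, and *Fosb* RNA was higher as well. The peaks of *Fos* and *Fosb* were all intergenic, and their assignment to these genes rests on the nearest promoter alone.

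The 6 peaks of *Jun* lay between 16.0 and 250 kb before its start site, and 5 of the 6 lay at least 48.3 kb away, so their assignment rests on the nearest promoter alone. The 2 closest were both higher, by 0.75 at chr4:95068045-95068445 and by 1.39 at chr4:95100369-95100769, which was the largest difference among the 25 peaks. Of the others, 3 were lower, by -0.89, -0.62 and -0.28, and 1 was higher, by 0.36. In the peak with the difference of -0.89 GENCODE has an exon of *Gm12708*. *Junb* had 2 peaks, 1428 bases before its start site and at its 3′ end, with differences of -0.28 and -0.31. *Jund* had 1 peak, 2164 bases before its start site at chr8:70695375-70695775, with a difference of -0.27. All 3 were strong in both genotypes, above 10 on the log2 concentration scale.

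*Batf* and *Batf3* had 3 peaks each, and all 6 were higher in UTX TCD cells. Across the whole list 68.8% of peaks were higher, and 85.3% of the 2621 promoter peaks were. The *Batf* promoter peak at chr12:85686504-85686904, over the start site, was at 11.07 in WT and 11.40 in UTX TCD cells. Peaks 25.7 kb before and 26.0 kb after the start site were higher by 0.57 and 0.85. At *Batf3*, the promoter peak at chr1:191098216-191098616 was at 8.29 in WT and 9.17 in UTX TCD cells, and peaks 13.0 and 27.7 kb after the start site were higher by 0.98 and 0.61. *Batf* RNA overlapped between the genotypes and *Batf3* RNA was near 0 in both, so these 6 differences stood beside no called change in *Batf* RNA and too few reads to measure one in *Batf3*. *Fos* and *Batf* lie 213 kb apart on chromosome 12, and the peak after *Fos* and the one before *Batf* lie between them.

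AP-1 dimers bind the palindrome TGANTCA, which reads the same on both strands, and JUN or FOS with ATF and CREB partners bind TGACGTCA. Of 23905 peaks of 401 bases on assembled chromosomes, 12.8% held TGANTCA and 1.02% held TGACGTCA. TGANTCA was in 1153 of 7443 peaks that were lower in UTX TCD cells (15.5%) and in 1906 of 16462 that were higher (11.6%). The lower peaks were also poorer in G and C (49.6% against 51.5%) and less often at promoters (5.19% against 13.6%). Outside promoters the shares were 15.7% in lower and 12.3% in higher peaks, and in groups of low, middle and high GC content they were 16.4% and 15.2%, 16.3% and 12.4%, and 13.2% and 7.33%. GC was not matched within the high group, where lower and higher peaks had a mean of 57.7% and 61.7% and were at promoters in 15.5% and 32.4% of cases. TGACGTCA was in 0.914% of lower and 1.07% of higher peaks. A composite element, GAAA followed directly by TGANTCA, at which BATF and JUN can bind beside IRF4, was searched on both strands after the other motifs had been counted. It was in 0.228% of lower and 0.231% of higher peaks. These shares describe peaks that were all selected for a difference, with no set of unchanged peaks beside them.

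**Figure D3:**
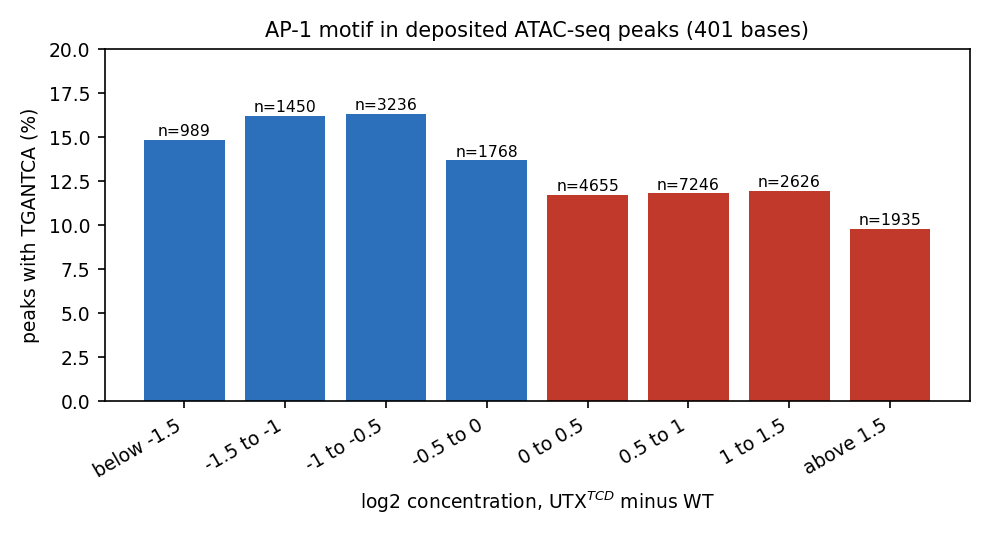
Percent of deposited ATAC-seq peaks of 401 bases that hold TGANTCA (y axis, from 0) in bins of the difference of log2 concentration, UTX TCD minus WT (x axis), with the number of peaks above each bar. Shares ran from 13.7% to 16.4% in the bins below 0 and were lower in every bin above 0, down to 9.82% in the highest.

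Among the 25 peaks of the family genes themselves, 3 held TGANTCA and 0 held TGACGTCA, beside 12.8% and 1.02% of all peaks, so the count is near the share in the whole list. All 3 matches had the form TGACTCA. They are printed here because they are the places where an AP-1 element lies in a differential peak of an AP-1 gene, with the match in capitals, on the plus strand of RefSeq GRCm38.p6. The first lies in the *Fosl2* promoter peak at chr5:32135843-32135871, inside a GENCODE exon of *Fosl2* but before the RefSeq start. The others lie in the intergenic *Batf* peaks before the gene, at chr12:85661115-85661215, and after it, at chr12:85712571-85712671, with no annotated exon.
*Fosl2* promoter peak, lower: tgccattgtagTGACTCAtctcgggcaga
*Batf* upstream peak, higher: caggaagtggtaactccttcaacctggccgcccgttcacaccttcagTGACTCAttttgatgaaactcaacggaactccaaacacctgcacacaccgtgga
*Batf* downstream peak, higher: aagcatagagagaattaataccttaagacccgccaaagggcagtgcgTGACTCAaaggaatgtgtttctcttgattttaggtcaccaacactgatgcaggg
In the promoter sequences of RefSeq GRCm38.p6, 300 bases around each start site, 8 of the 9 members had an entry and 0 of the 8 held TGANTCA or TGACGTCA, while 7.81% and 1.79% of all 32851 promoters did. A match or its absence is a statement about these letters only.

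Among markers of the mediator cells into which T_prog_ cells develop, 8 genes were listed, 6 were tested and 3 were called, each of them lower, where 7.05% of all tested genes were called lower, and the median log2 fold change was -1.07. *Havcr2* and *Entpd1* passed the filter on low counts only through WT, and of the other 4 genes 2 were called (50%, against 16.4%), with a median of -0.77. *Cxcr6*, against which the labels' gate selects, was counted at 12033 ± 2146 in WT and 5658 ± 355 in UTX TCD cells (SD, n = 3, log2 fold change -1.07, limma adjusted p = 0.000131). *Gzma* and *Havcr2* were called at -1.06 and -2.23. The summed count of the 8 markers was 24738, 20609 and 26193 in WT and 17458, 18568 and 18522 in UTX TCD libraries. By the mean over all libraries *Prf1* was the most abundant, whereas in WT *Cxcr6* had the higher mean. *Prf1* lay the other way, at 11058 ± 686 in WT and 12052 ± 328 in UTX TCD cells (SD, n = 3) without overlap, and was not called by limma. *Gzmb* and *Entpd1* were lower but not called, at log2 fold changes of -0.47 and -1.15 (limma adjusted p = 0.0217 and 0.131). For *Gzmb* the groups did not overlap and only the fold limit was missed, whereas for *Entpd1* they overlapped. WT replicate 2 was the lowest WT library in this sum and in *Fosl2*, and the part of such cells in the *Fosl2* values was not tested.

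Markers of other cell types were mostly low beside *Cd8a* in normalized counts, which are not scaled for gene length. Per kilobase of GENCODE exon, *Ighm* stood at 378 RPKM in WT and 338 in UTX TCD cells, beside 516 and 590 for *Cd8a*. The γδ T cell gene *Trdc* was at 108 and 101 RPKM. Of 7 B cell genes 6 were tested and 3 were called (50%, against 17.6% of all tested genes). *Cd22* and *Ms4a1* were higher and *Cd79b* was lower (log2 fold change 1.90, 1.72 and -1.98). *Ms4a1* rested on 6 to 20 reads per WT library and lost its call without WT replicate 1, WT replicate 3, UTX TCD replicate 2 or UTX TCD replicate 3 (limma adjusted p = 0.119, 0.0889, 0.0681 and 0.112, from 0.0149 to 0.119 over the alternatives). The most abundant gene of that list, *Ighm*, was at 103373 ± 8485 in WT and 88592 ± 6841 in UTX TCD cells (SD, n = 3) and set the list's sum of 114678, 97230 and 106661 in WT and 96337, 90983 and 82784 in UTX TCD libraries, whereas *Pax5* had at most 15 reads in any library. Of 10 myeloid and dendritic cell genes 6 were tested, and *Itgax*, *Fcgr3* and *Csf1r* were called lower, where 7.05% of all tested genes were. *Itgax* and *Csf1r* passed the filter on low counts only through WT, and without them 1 of 4 was called (25%, against 16.4%). For *Itgax*, 49, 25 and 73 reads in WT stood against 0, 0 and 6 in UTX TCD cells, and its log2 fold change of -4.57 was -2.89 with a pseudocount of 5. The myeloid sum was 1070, 1023 and 914 in WT and 1217, 959 and 1165 in UTX TCD libraries. Its most abundant gene, *Cd68*, lay the other way, at 632 ± 77.1 in WT and 857 ± 138 in UTX TCD cells (SD, n = 3) without overlap (log2 fold change 0.43, limma adjusted p = 0.0377, within the fold limit). None of the genes in these lists was at 0 in all 6 libraries.

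Of 3 CD4 genes tested, *Zbtb7b* and *Cd4* were called lower (log2 fold change -1.85 and -0.74), where 7.05% of all tested genes were. The most abundant of that list, *Foxp3*, was at 275 ± 41.1 in WT and 283 ± 21.4 in UTX TCD cells (SD, n = 3). The call of *Cd4* was lost without any 1 library other than UTX TCD replicate 2, with log2 fold changes from -0.81 to -0.54, as well as without a filter, with scaling to the same sum and with DESeq2 (adjusted p = 0.0673, 0.0543 and 0.0573, from 0.0349 to 0.101 over the alternatives). The summed CD4 count was 475, 373 and 442 in WT and 373, 350 and 344 in UTX TCD libraries. Of the natural killer and γδ T cell genes, 0 of 2 tested were called by limma, edgeR or DESeq2, where limma called 17.6% of all tested genes. Of these, 1 had an unadjusted limma p under 0.05. This was *Trdc*, lower without overlap at 60830 ± 3676 in WT and 54130 ± 2937 in UTX TCD cells (SD, n = 3). It passed the adjusted p without the fold limit (log2 fold change -0.17, limma adjusted p = 0.0451), as did 40.7% of all tested genes. *Trdc* made up nearly the whole sum of 64887, 57698 and 60013 in WT and 57481, 52992 and 51966 in UTX TCD libraries.

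Among stromal and endothelial genes, 1 of 3 tested was called (33.3%, against 17.6% of all tested genes). This was *Col1a2*, higher by a log2 fold change of 0.81, or 0.53 without WT replicate 2. Its call was lost without UTX TCD replicate 2 (limma adjusted p = 0.0805, from 0.00273 to 0.0805 over the alternatives). The endothelial gene *Cdh5* went the other way, with 25, 22 and 13 reads in WT and 0 in each UTX TCD library, and its mean was too low for a test. *Pecam1*, also known on T cells, led that list, with sums of 31934, 29797 and 32085 in WT and 37932, 38148 and 33880 in UTX TCD libraries. Limma, edgeR and DESeq2 called 0 of 2 tested red cell genes, where limma called 17.6% of all tested genes, and 0 had an unadjusted limma p under 0.05. *Alas2* led that list at 153 ± 19.9 in WT and 146 ± 7.13 in UTX TCD cells (SD, n = 3). Their summed count was 242, 196 and 169 in WT and 175, 163 and 309 in UTX TCD libraries. In the exocrine pancreas list, 1 of 2 tested genes was called (50%, against 17.6% of all tested genes). This was *Cela1*, lower on 2 to 32 reads per library, which passed the filter only through WT. *Prss2* was the most abundant at 153 ± 25.6 in WT and 119 ± 14.4 in UTX TCD cells (SD, n = 3). The exocrine sum was 201, 179 and 151 in WT and 144, 124 and 114 in UTX TCD libraries, and *Cpa1* and *Pnlip* had at most 3 reads in each library. The part of any of these cell types in the AP-1 values was not tested.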

How the data were processed

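RNA-seq was made from 3 WT and 3 UTX TCD samples of T_prog_ cells, and ATAC-seq from 3 and 3. Per the labels and the study's methods, the authors aligned RNA reads to mm10 with HISAT2 2.2.1, used featureCounts for counts per gene and scaled these by DESeq2 size factors, so the deposited RNA signal is a normalized count per gene and library. The gene annotation and strand setting are not given in the sources used here. For ATAC-seq the authors trimmed with Cutadapt, aligned with Bowtie2, processed alignments with SAMtools and Picard, called peaks with MACS2, and compared genotypes with DiffBind. The deposited log2 concentrations are the authors' mean per genotype. A shift of reads for the transposase is not given in the sources used here. Both files also hold the authors' own comparison (a log2 fold change or fold with its error, p-value or FDR), which was not used.

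From these values, whole reads were recovered by dividing by each library's step, and 100% of values came out whole within 0.01. Limma 3.58.1 in R 4.3.3 (lmFit, eBayes with trend) was fitted to log2(normalized count + 1) of the 14459 genes with a mean of at least 10, with genotype as the only term and Benjamini-Hochberg adjustment over all of them. As alternatives, edgeR 4.0.16 called 2541 genes and DESeq2 1.42.0 called 2422 on the recovered reads. Others changed the pseudocount, the filter, the scaling, the fold limit and the pairing, or left out each library. The fit was tested on simulated data. Labels give the samples as separate, and ATAC-seq samples are described as biological replicates, so p-values measure the spread between these samples.

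Members and gene lists were chosen with earlier results of these data known. Named genes are the 9 members, *Kdm6a*, up to 6 called genes of each list with the largest absolute log2 fold change, the most abundant gene of each list of another cell type, the nearest patterns and every member peak. Others named were singled out after their values were seen. Medians without genes under a mean of 10 in 1 group were also added after the data were seen. Peaks off the assembled chromosomes, of another width or with unknown bases (27) were left out of the motif counts. RPKM used exon unions of GENCODE vM21 or RefSeq. Sequences came from RefSeq GRCm38.p6 (pysam 0.24.0).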

Additional observations from a re-analysis of the deposited data

How the results depend on the processing

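The 8 tested members kept their direction in all 119 combinations of member and alternative, and 118 of these were on the same side of the call. The exception was *Fosl1*, at log2 fold changes from 0.71 to 1.95 when 1 library was left out, called only without UTX TCD replicate 3. *Fosl2*, *Fos*, *Jun* and *Fosb* were called in every alternative, at log2 fold changes from -2.60 to -2.35, -0.68 to -0.53, 0.79 to 0.92 and 0.72 to 0.97. *Jund* was added with no fold limit, which gave 5 members, 62 other listed genes in place of 27, and 5887 genes in all in place of 2538. Leaving out 1 library gave 2164 to 2570 genes and 23 to 34 other listed genes. Scaling to the same sum moved the median log2 fold change of all genes to 0.06. Of 411 combinations for *Kdm6a* and the 27 called genes of the lists, 387 were on the same side of the call, 24 in 6 genes lost it, and 0 changed direction. Same-numbered samples share only a number. Their deviations from the group means correlated at 0.305, -0.200 and 0.090, not every sample correlated best with its own number, and the replicate block gave 2474 calls, 4 members and 27 other listed genes. The difference of mean concentrations is not the authors' own fold change, so a limit of 0.5 on it does not repeat the paper's call. With an absolute difference over 0.5, 10 member peaks were higher and 7 lower, in place of 13 and 12 (58.8% higher, against 67.5% of all such peaks). Within 50 kb they were 11 and 9 (55% higher, against 70.6%). TGACTCA or TGAGTCA alone was in 8.05% of higher and 11.1% of lower peaks, since it is the stricter motif. Few reads were counted for *Fosl1* and *Batf3*, and UTX TCD replicate 1 has the fewest counted reads in all.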
